A study of Saccharomyces cerevisiae and Saccharomyces pastorianus with 78 samples.

Results

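The comparison described here set 3 samples of the budding yeast Saccharomyces cerevisiae after 20 h in 7% ethanol (EtOH 20 h) against 3 control samples, using every gene in the table. The libraries were picked by their labels, and they are 6 of the 78 samples of the series and 6 of its 39 samples of strain BY4741. BY4741 is a haploid laboratory strain of mating type a that lacks LEU2, MET17 and URA3 and carries a partly deleted HIS3, and all groups share that genotype. Cultures grew in the rich medium YPD at 25 °C, and ethanol was added at an OD595 of about 0.1. The control libraries were taken from the aliquot that then received the ethanol, and no untreated culture at 20 h was used here, so time in culture and ethanol cannot be told apart against this control. Control and ethanol samples thus came from the same cultures, but the labels do not say whether a replicate number marks one culture. Cultures in 7% ethanol for 8 h (EtOH 8 h) and cultures in 0.01% sodium dodecyl sulfate, a detergent, for 20 h (SDS 20 h) served for 2 further comparisons, with 3 libraries in each group; the SDS aliquot was the other portion of the cultures, and it shares the 20 h. RNA was selected by its poly(A) tail and sequenced, and the values are reads counted per gene.

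Ethanol at this strength loosens the plasma membrane, lets protons leak into the cell and unfolds proteins. In yeast it is known to act through the heat shock factor Hsf1, which drives chaperone genes through heat shock elements, and through Msn2 and Msn4, which drive a general stress programme through stress response elements. Yeast also makes ethanol from glucose, and later burns it through acetaldehyde, acetate and acetyl-CoA once glucose runs low, which needs genes that glucose keeps repressed. Ribosomal protein genes, the costliest part of the transcriptome of growing yeast, usually move against stress genes.

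The promoters of 3 genes on which the results turn are shown, with capitals for the heat shock elements of BTN2 and SSA4 and the stress response elements of HSP12: a pair of chaperone-system genes driven by Hsf1, and the membrane protein gene HSP12. Each stretch is the 250 bases that end 100 bases before the start codon in the R64 reference genome, on the gene's own strand, 5′ to 3′. The heat shock element was searched as GAANNTTC or TTCNNGAA, and the stress response element as AGGGG, each on both strands, and matches of one motif may overlap. BTN2 has 3 overlapping heat shock elements and no stress response element. SSA4 has 1 heat shock element and also 1 stress response element, left in lower case. HSP12 has 2 stress response elements and no heat shock element.
BTN2 (chrVII:772104-772353, plus strand): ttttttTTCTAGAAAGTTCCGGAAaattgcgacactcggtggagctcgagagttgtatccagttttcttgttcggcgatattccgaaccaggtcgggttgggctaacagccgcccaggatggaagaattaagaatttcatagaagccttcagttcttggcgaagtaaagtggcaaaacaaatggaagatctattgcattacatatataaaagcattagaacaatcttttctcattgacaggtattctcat
SSA4 (chrV:364239-364488, plus strand): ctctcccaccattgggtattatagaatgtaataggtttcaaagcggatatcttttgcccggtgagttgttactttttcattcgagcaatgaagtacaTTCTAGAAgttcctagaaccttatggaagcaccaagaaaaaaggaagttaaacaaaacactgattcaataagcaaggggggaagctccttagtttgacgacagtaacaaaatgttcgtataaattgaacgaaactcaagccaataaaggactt
HSP12 (chrVI:106906-107155, plus strand): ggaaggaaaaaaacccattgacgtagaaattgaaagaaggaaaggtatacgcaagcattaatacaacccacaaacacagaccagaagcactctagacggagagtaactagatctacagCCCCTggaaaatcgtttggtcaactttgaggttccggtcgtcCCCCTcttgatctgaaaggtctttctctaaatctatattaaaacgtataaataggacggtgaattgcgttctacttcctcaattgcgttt
Over the promoters of 6001 genes, 1168 (19.5%) held the heat shock element and 1209 (20.1%) the stress response element. In the list of 28 heat shock chaperone genes 23 promoters (82.1%) held the heat shock element, and in the list of 26 general stress genes 23 (88.5%) held the stress response element. Both lists were drawn up around these factors, so these shares are not a result of the data. Of genes called higher against control, 17.3% held the heat shock element and 29.2% the stress response element. Of genes called lower, 25.7% and 15.7% did. The window of HSP26, described below, held no heat shock element. A match is a run of letters in the window and was not tested as a binding site.

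The EtOH 20 h libraries held 6666321, 6410729 and 6669522 counts in replicates 1, 2 and 3, and the control libraries between 7779647 and 8653207. The EtOH 20 h replicates spread more widely than any other BY4741 group. The median over genes of the SD of log2 CPM (counts relative to the library's total) was 0.243 among the EtOH 20 h libraries and 0.0879 among controls, and it lay between 0.0887 and 0.153 in the other groups. In 764 genes the EtOH 20 h replicates spanned at least 2-fold, against 42 genes in the controls and 23 to 184 in the other groups. The spread had an order: replicate 2 lay between the others in 686 of the 764 genes, and replicate 3 was the highest in 401 and the lowest in 352. Replicate 3 also stood farthest from the controls, with 717 genes at least 2-fold above and 553 at least 2-fold below the control mean, against 401 and 143 in replicate 1. Noncoding RNAs took 0.0597%, 0.0704% and 0.186% of counts in EtOH 20 h replicates 1, 2 and 3, and between 0.0407% and 0.0438% in controls. SCR1, the RNA of the signal recognition particle, which has no stable poly(A) tail, stood at 34, 67.7 and 291 scaled CPM in EtOH 20 h replicates 1, 2 and 3, and at 2.78, 3.4 and 8.57 in controls. These values ran in the same order over the replicates as the heat shock genes described below, and their part in the results was not tested. In RNA from whole cultures, fewer cells expressing a gene and less RNA per cell cannot be told apart.

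**Figure D1:**
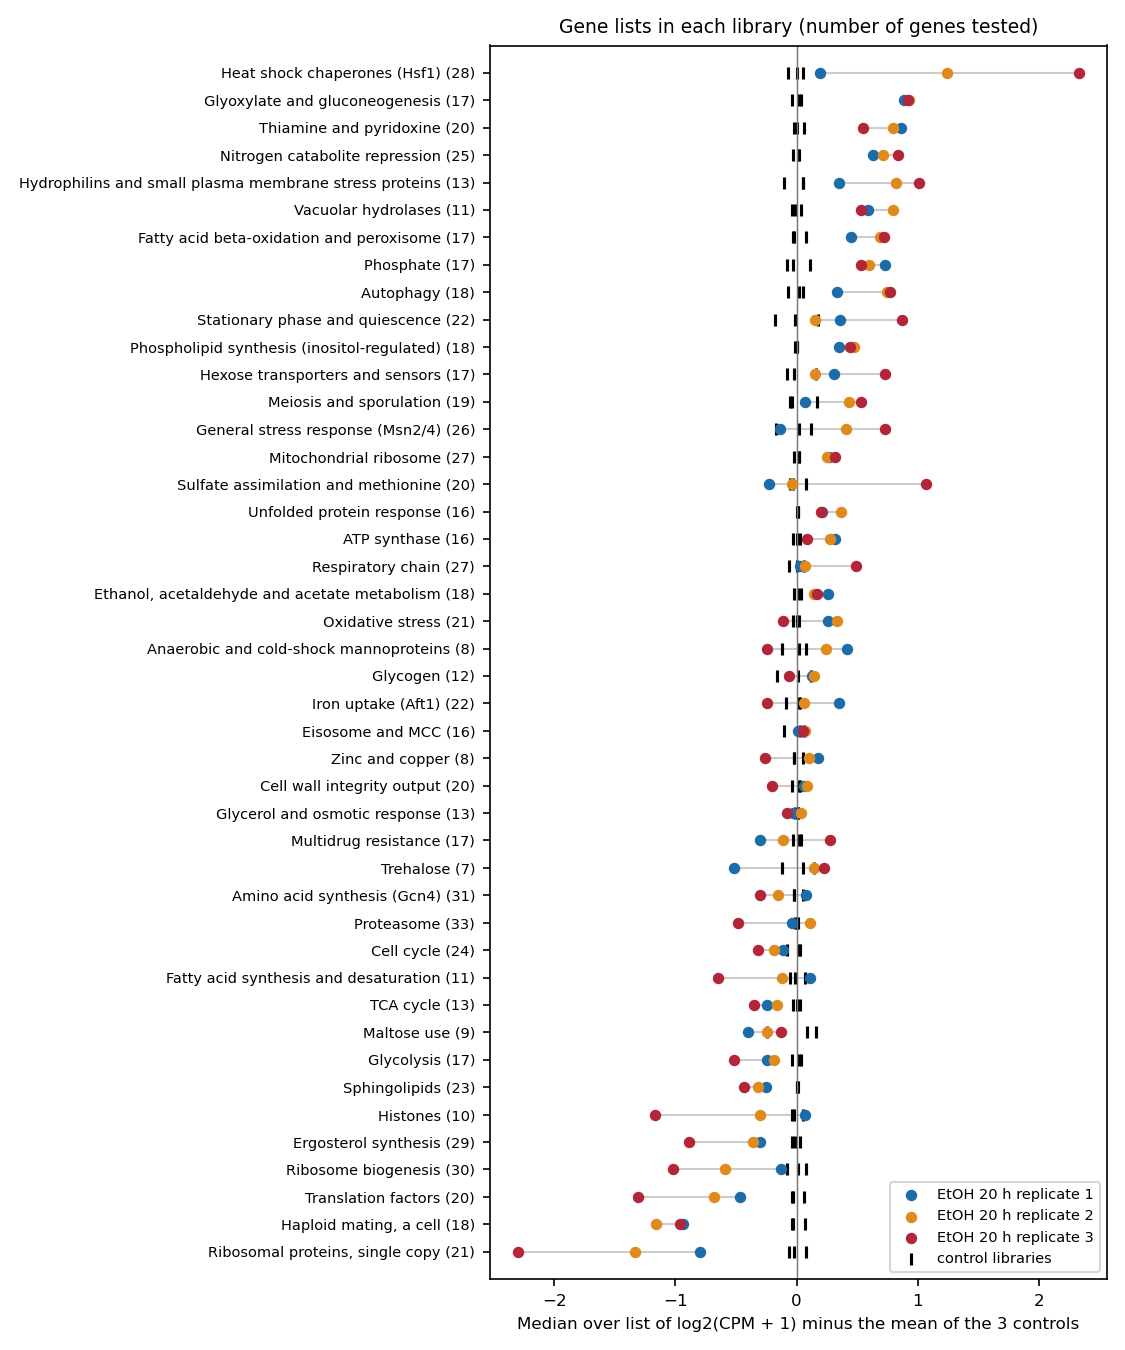
Each row is a gene list with the number of genes tested, and the x axis is the median over the list of the log2 scaled CPM (pseudocount 1) minus the mean of the 3 controls. Coloured dots are the EtOH 20 h replicates and black ticks the controls. The dots fan out in the heat shock row (0.19, 1.24 and 2.33 in replicates 1, 2 and 3) and in the ribosomal protein row (-0.80, -1.33 and -2.30), and lie close together in the nitrogen row (0.63, 0.71 and 0.84) and the mating row (-0.94, -1.16 and -0.96).

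The strain and mating type fitted their labels. LEU2, MET17 and URA3 had 0 counts in all 6 libraries. HIS3, of which part remains, stood at 68.6, 64.8 and 68.5 scaled CPM in EtOH 20 h cultures and 41, 40.7 and 46.2 in controls. Genes of a cells were present (STE2, the receptor for alpha factor, at 243, 205 and 184 scaled CPM in EtOH 20 h cultures and 618, 610.0 and 674 in controls). MF(ALPHA)1, the main alpha factor gene, stayed below 1 scaled CPM in each of the 6 libraries, and HMLALPHA1 had 0 counts.

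Of 5938 genes tested, 510 (8.59%) were higher and 207 (3.49%) lower in EtOH 20 h cultures than in controls. A gene was called when the adjusted p of edgeR's quasi-likelihood test over all genes was below 0.05 and the change at least 2-fold, that is 1 on the log2 scale; rose and fell are used of called genes only. At an unadjusted p below 0.05 there were 2834 genes, and 2084 passed after adjustment without the fold rule. Higher genes made up 71.1% of the calls. The shares of all genes called, 8.59% higher and 3.49% lower, are the background for the list counts against control below. When libraries were scaled by their totals alone, the split became 738 higher and 103 lower (87.8% higher) and the median log2 fold change of all genes moved to 0.28, against 0.06 with the main scaling. All 3 EtOH 20 h libraries lay above all 3 controls in 1689 genes (28.4%) and below them in 1616 (27.2%). The count of lower genes depended on single libraries: it was 363 without EtOH 20 h replicate 1, 86 without replicate 2 and 183 without replicate 3, and 98, 86 and 87 without control replicates 1, 2 and 3. The labels call the cultures biological replicates, and the p-values measure the spread between these libraries.

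**Figure D2:**
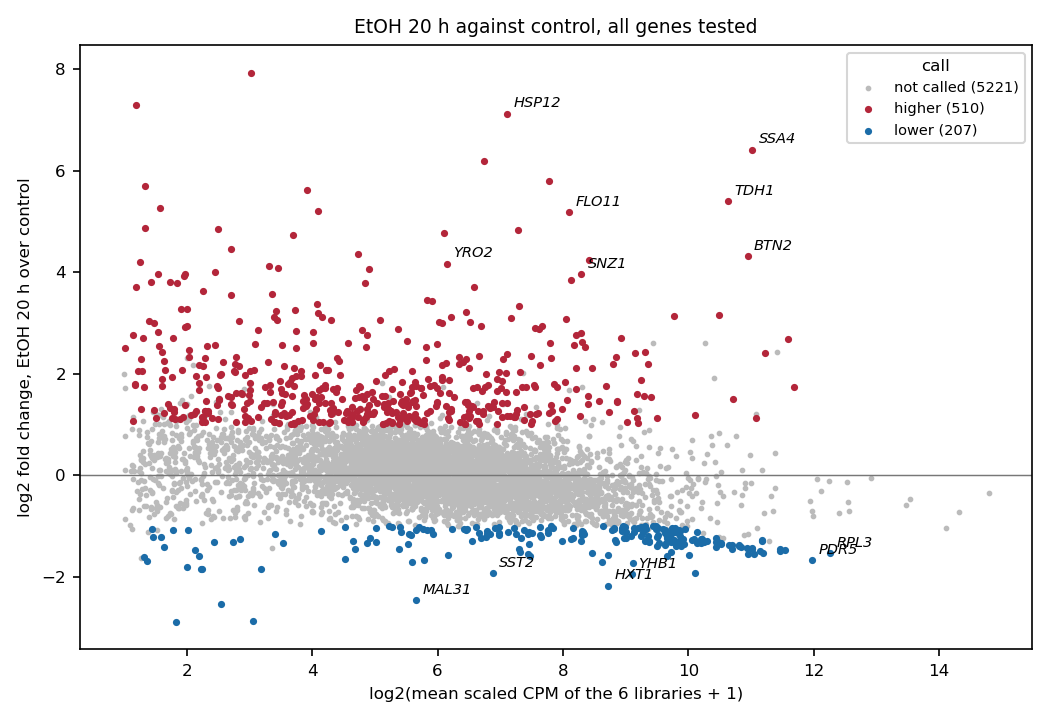
Each point is a gene; the x axis is the log2 of its mean scaled CPM over the 6 libraries (pseudocount 1) and the y axis its fitted log2 fold change of EtOH 20 h over control. The 510 called higher genes are red, the 207 called lower genes blue and the 5221 others grey. The rises reach further from 0 than the falls.

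The levels of heat shock chaperone genes followed the order of the replicates. Of 28 tested members, 12 rose and none fell, and the list's median log2 fold change was 1.96, against 0.06 over all genes. Beside it, 8.59% of all genes were called higher. The list took 2.23%, 4.17% and 11.8% of all counts in EtOH 20 h replicates 1, 2 and 3, and 2.18% to 2.39% in controls. Replicate 1 thus stood at the control share. In 17 of the 28 genes all EtOH 20 h libraries nonetheless lay above all controls, against 28.4% of all genes. Without replicate 3, 9 genes rose and the median was 0.81, below that of the glyoxylate and gluconeogenesis list (0.99); without replicate 1, 19 rose. Without replicate 2, 6 rose, and without control replicates 1, 2 and 3 there were 5, 5 and 4. With the replicate number as a block 6 rose. The noncoding RNA share given above ran in the same order of libraries, and its part in the result was not tested.

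SSA4 (YER103W, chrV:364589-366517), the most strictly stress-induced of the cytosolic Hsp70 chaperones, carries the single heat shock element shown above. It stood at 615, 2174 and 9516 scaled CPM in EtOH 20 h replicates 1, 2 and 3, and at 54.9, 49.1 and 43.7 in controls. Every EtOH 20 h library was above every control, and the highest was far above the lowest. The means were 4102 ± 4753 in EtOH 20 h cultures and 49.2 ± 5.62 in controls (SD, n = 3 each), an 85.5-fold rise (log2 fold change 6.42, SE 1.08, adjusted p = 0.00583). Without replicate 3 the log2 fold change was 4.82 (adjusted p = 0.00236), and SSA4 was called under each of the alternatives tried. BTN2 (YGR142W, chrVII:772454-773686), which gathers misfolded proteins into deposits, stood at 343, 1552 and 9351 scaled CPM in EtOH 20 h cultures, against 307, 138 and 135 in controls. Replicate 1 was close to the highest control. Its log2 fold change of 4.32 (SE 1.18, adjusted p = 0.0297) became 2.28 without replicate 3, where the call was lost (adjusted p = 0.0536). The call was also lost without replicate 2 (adjusted p = 0.0582) and without control replicates 1, 2 and 3 (0.0777, 0.107 and 0.11).

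HSP26, a small heat shock protein that holds unfolded proteins, stood at 131, 341 and 812 scaled CPM in EtOH 20 h cultures and 8.47, 7.2 and 7.88 in controls. It rose with a log2 fold change of 5.80 (SE 0.71, adjusted p = 0.00192), or 4.90 without replicate 3. SSE2, a nucleotide exchange factor for Hsp70, stood at 148, 361 and 1436 in EtOH 20 h cultures and 36, 39.8 and 29.2 in controls. Its log2 fold change was 4.25 (adjusted p = 0.0101), 2.86 without replicate 3, and its call was lost without control replicate 3 (adjusted p = 0.0534). HSP42, the other small heat shock protein, HSP78, a mitochondrial disaggregase, MDJ1, a mitochondrial Hsp40, and HSP82, the stress-induced Hsp90, rose with log2 fold changes of 3.16, 3.13, 2.41 and 2.41. In HSP42 the EtOH 20 h libraries stood at 390.3, 1396 and 5933 scaled CPM and the controls at 338, 308 and 240.0, so most of that difference lay in replicates 2 and 3. HSP31, a chaperone and glyoxalase, had no such order, with 105, 123 and 91.9 scaled CPM in EtOH 20 h cultures and 17.3, 20.3 and 16.3 in controls (log2 fold change 2.58, SE 0.15, adjusted p = 0.000183). SSA3, another stress-induced Hsp70, stood at 113, 195 and 209 in EtOH 20 h cultures and 41.6, 43.8 and 46.3 in controls, a log2 fold change of 2.00 (adjusted p = 0.00173).

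Several chaperone genes with large mean differences and a wide spread were not called by edgeR on these libraries. HSP104, the disaggregase that pulls proteins out of aggregates, stood at 935, 2503 and 10307 scaled CPM in EtOH 20 h cultures and 947, 931 and 762 in controls. Replicate 1 lay inside the control range, and the log2 fold change of 2.42 (SE 0.82) missed the threshold (adjusted p = 0.0559). Without replicate 1 it was called (log2 fold change 2.86, adjusted p = 0.00893), and without replicate 3 its log2 fold change was 0.96. SIS1, an Hsp40 that holds Hsf1 in check, stood at 329, 927 and 5159 in EtOH 20 h cultures and 589, 603 and 552 in controls. Its replicate 1 was below every control and replicate 3 far above, and the log2 fold change was 1.92 (adjusted p = 0.133), or 0.11 without replicate 3. APJ1 and FES1, an Hsp40 and an Hsp70 exchange factor, and ZPR1, a chaperone of elongation factor eEF1A, had log2 fold changes of 2.79, 2.60 and 2.61, with adjusted p-values of 0.0639, 0.066 and 0.0712. All 3 were called without replicate 1 (adjusted p = 0.0108, 0.0096 and 0.014). DESeq2 on the same 6 libraries called HSP104 and these 3 (adjusted p = 0.0278, 0.0344, 0.0362 and 0.0454), and so did limma voom (0.000685, 0.00503, 0.00206 and 0.00469). The chaperones of growing cells had other values: HSC82, the constitutive Hsp90, stood at 2363, 2853 and 3824 scaled CPM in EtOH 20 h cultures and 4980.2, 4959 and 4991 in controls (log2 fold change -0.70, adjusted p = 0.101). HSC82 and HSP82 share part of their sequence, as do SSA1 and SSA2 (57.9% of the 50-base stretches of SSA1 occur more than once in the genome), so reads may have been split between them.

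Of the 10 genes with the widest range over the EtOH 20 h libraries, 9 were highest in replicate 3 and lowest in replicate 1 and encode proteins: BTN2, ATG41, APJ1, FES1, ZPR1, SIS1, ROQ1, HSP30 and SSA4. The remaining one, the small nucleolar RNA snR18, had the same order, with 3.11, 7.61 and 82.8 scaled CPM in EtOH 20 h cultures and 0.847, 1.57 and 0.138 in controls. ATG41, an autophagy gene, stood at 52.9, 169.9 and 1338 in EtOH 20 h cultures and 45.1, 34 and 32.9 in controls. It rose by 3.84 on the log2 scale (adjusted p = 0.0355), and 1.57 without replicate 3 (adjusted p = 0.0553); the call was also lost without replicate 2 (0.0572) or control replicates 1, 2 and 3 (0.104, 0.116 and 0.12). ROQ1, a regulator of the ubiquitin ligase Ubr1, stood at 31.3, 126 and 606 in EtOH 20 h cultures and 38.5, 28 and 25.2 in controls, and its call (log2 fold change 3.09, adjusted p = 0.0436) was lost without any one library other than EtOH 20 h replicate 1 (adjusted p = 0.0754 to 0.138). RPN4, the activator of proteasome genes, stood at 127, 278 and 907 in EtOH 20 h cultures and 209.7, 234 and 195 in controls and was not called (log2 fold change 1.07, adjusted p = 0.221). None of 33 proteasome genes was called, at a median of -0.13 (0.08 with libraries scaled by totals alone).

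**Figure D3:**
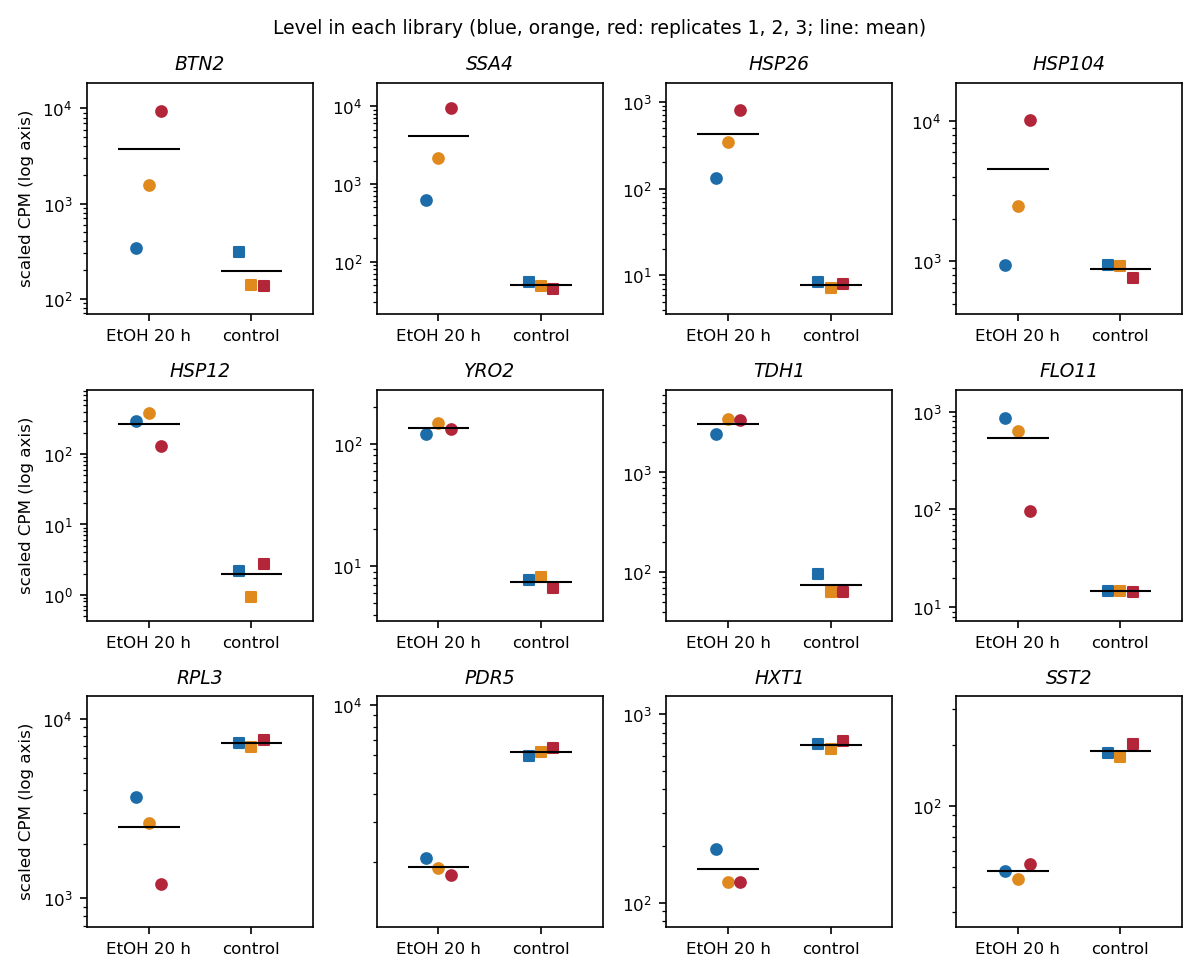
Each panel is a gene; circles on the left are the EtOH 20 h libraries, coloured by replicate, squares on the right the controls, and lines the group means, on a log axis of scaled CPM. BTN2, SSA4, HSP26 and HSP104 are lowest in replicate 1 and highest in replicate 3, and in BTN2 replicate 1 (343) lies next to the highest control (307); RPL3 is lowest in replicate 3. YRO2, TDH1, PDR5, HXT1 and SST2 form tight groups on one side of the controls. In FLO11 replicate 3 is the low one.

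The general stress genes of Msn2 and Msn4 were mixed. Of 26 tested, 8 rose and 1 fell, with a list median of 0.61 and replicate medians of -0.14, 0.41 and 0.73. Without replicate 3 the list median was 0.24, with 8 rises and 2 falls. HSP12 (YFL014W, chrVI:107256-107585), a small protein that lies on the plasma membrane and whose promoter holds the stress response elements shown above, had the largest fold of the genes named here. It stood at 301, 386 and 131 scaled CPM in EtOH 20 h cultures and 2.18, 0.916 and 2.76 in controls, a 140.1-fold rise (log2 fold change 7.13, SE 0.55, adjusted p = 0.000429). Replicate 3, the highest library for chaperones, was the lowest for HSP12. HOR7, a small plasma membrane protein, stood at 551, 756 and 994 in EtOH 20 h cultures and 162, 169.6 and 136 in controls (log2 fold change 2.32, adjusted p = 0.0014). NQM1, a transaldolase of the pentose phosphate pathway, and DDR2 rose by 2.30 and 2.12. CTT1, cytosolic catalase and a classical target of Msn2, stood at 11.2, 10.7 and 20.5 in EtOH 20 h cultures and 15.7, 16.8 and 13.3 in controls and was not called (log2 fold change -0.09, SE 0.28, adjusted p = 0.828). GPX2, a glutathione peroxidase, was the member that fell, with 27.5, 26 and 23.2 in EtOH 20 h cultures and 88.3, 83.1 and 75.1 in controls (log2 fold change -1.67, adjusted p = 0.00031).

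Small proteins of the plasma membrane and cell surface rose among the hydrophilins and related genes, in 5 of 13 tested with a median of 0.88. The median was 0.41 without EtOH 20 h replicate 3, and the count was 3 and 2 without control replicates 1 and 3. HSP30, which restrains the proton pump Pma1 under stress, stood at 28.2, 95.1 and 774 scaled CPM in EtOH 20 h cultures and 10.8, 8.51 and 12.9 in controls. It rose by 4.84 on the log2 scale (adjusted p = 0.0228), and 2.52 without replicate 3; its call was lost without control replicate 1, 2 or 3 (adjusted p = 0.0829, 0.0869 and 0.0839). YRO2, a relative of HSP30, was tight by comparison, with 120.3, 148 and 131 in EtOH 20 h cultures and 7.62, 8.11 and 6.64 in controls (log2 fold change 4.17, SE 0.14, adjusted p = 2.53e-05). SPI1, a cell wall protein, stood at 60.4, 85.4 and 381 in EtOH 20 h cultures and 14.3, 15.1 and 12 in controls. Its log2 fold change was 3.71 (adjusted p = 0.0108), 2.40 without replicate 3, and without control replicate 3 the adjusted p was 0.0534. PMA1 itself, the proton pump, stood at 4314, 3222 and 2066 in EtOH 20 h cultures and 4821, 4363 and 4763 in controls, below them in every library but not called (log2 fold change -0.52, adjusted p = 0.239).

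Some reserve carbohydrate genes were called, where 8.59% of all genes were called higher and 3.49% lower. In glycogen metabolism 2 of 12 genes rose, GPH1, the phosphorylase, and GDB1, the debranching enzyme, with log2 fold changes of 1.64 and 1.26, and 1 fell, GSY1, a glycogen synthase (66.3, 94 and 88.9 scaled CPM in EtOH 20 h cultures, 258, 275 and 156 in controls; log2 fold change -1.45, adjusted p = 0.00621). In trehalose metabolism 1 of 7 rose, NTH1, which degrades trehalose, with 382, 433 and 457 in EtOH 20 h cultures and 183, 212 and 183 in controls (log2 fold change 1.16, adjusted p = 0.00208). TPS1, the trehalose phosphate synthase, stood at 267, 326 and 399 in EtOH 20 h cultures and 547, 641 and 525 in controls, lower in every library by less than the fold rule asks (log2 fold change -0.77, adjusted p = 0.0283). TPS2, the phosphatase of the same pathway, had a log2 fold change of -0.99 (adjusted p = 0.043). GPP2, a glycerol phosphatase, was the 1 of 13 glycerol and osmotic genes that rose, with 618, 484 and 380.3 in EtOH 20 h cultures and 94.7, 83.2 and 75.6 in controls (log2 fold change 2.56, adjusted p = 0.000511).

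Most ribosomal protein genes fell. Of 21 tested, chosen mostly for having no near-identical copy, 18 fell and none rose, at a median of -1.31 (-1.10 with libraries scaled by totals alone), where 3.49% of all genes were called lower. All 3 EtOH 20 h libraries lay below all controls in 20 of the 21, against 27.2% of all genes. The replicate medians were -0.80, -1.33 and -2.30, so replicate 3 was again the farthest from the controls. The calls depended on single libraries: 11 fell without replicate 3, at a median of -1.05, and 20 without replicate 1, but none without replicate 2 or without any one control. With the replicate number as a block 1 fell. RPL3, a core protein of the large subunit, stood at 3646, 2636 and 1209.5 scaled CPM in EtOH 20 h cultures and 7338, 6975 and 7611 in controls (log2 fold change -1.54, SE 0.42, adjusted p = 0.0297). Without replicate 3 it was -1.22 (adjusted p = 0.00133); without replicate 2 the adjusted p was 0.109, and without control replicates 1, 2 and 3 it was 0.0893, 0.0894 and 0.0969. RPS2 of the small subunit stood at 1714, 1267 and 589 in EtOH 20 h cultures and 3221, 3375 and 3806 in controls (log2 fold change -1.53, adjusted p = 0.0258, and 0.0751 to 0.0948 without replicate 2 or any one control). ASC1, a signalling protein that sits on the small subunit, had 2259.9, 1577 and 576 in EtOH 20 h cultures and 4059, 4092 and 4415 in controls (adjusted p = 0.0455; 0.112 to 0.133 without replicate 2 or any one control). RPL28 and RPL29 were not called (log2 fold changes 0.27 and -0.80).

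Of 30 ribosome biogenesis genes 2 fell, NOP7 and NOP56, and the list median was -0.55 (-0.34 with libraries scaled by totals alone). Without EtOH 20 h replicate 1, 7 fell, and without any other one library none did. NOP7, needed to mature the large subunit RNA, stood at 451, 316 and 198 scaled CPM in EtOH 20 h cultures and 712, 664 and 749.8 in controls (log2 fold change -1.13, SE 0.29, adjusted p = 0.0247). Its call was lost without any one library other than EtOH 20 h replicate 1: the log2 fold change was -0.88 without replicate 3, and the adjusted p 0.0963 without replicate 2 and 0.079, 0.0748 and 0.0885 without control replicates 1, 2 and 3. NOP56, a box C/D snoRNP protein, lost its call under the same conditions, with a log2 fold change of -0.75 without replicate 3 and adjusted p-values of 0.112 to 0.13 without the others. Of 20 translation factor genes 1 fell, EFT2, elongation factor 2 (log2 fold change -1.34, adjusted p = 0.0236; 0.0763 to 0.0893 without replicate 2 or any one control); 91.9% of the 50-base stretches of EFT2 occur more than once in the genome. Without EtOH 20 h replicate 1, 9 translation factor genes fell, and 5 did with DESeq2. In 18 of the 20 all EtOH 20 h libraries lay below all controls, against 27.2% of all genes. Of 27 mitochondrial ribosomal protein genes 1 rose, MRPS16 (log2 fold change 1.16), where 8.59% of all genes were called higher. The median of that list was 0.30, against 0.06 over all genes. In 16 of the 27 all EtOH 20 h libraries lay above all controls, against 28.4% of all genes. None of 24 cell cycle genes was called. CLN2, a G1 cyclin, stood at 132, 105 and 70.6 in EtOH 20 h cultures and 158, 171 and 173 in controls (log2 fold change -0.69, adjusted p = 0.0369).

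HRP1 and YHB1, outside these lists, were also among the 12 largest falls. HRP1, a factor for messenger RNA 3′ end formation, stood at 194, 205 and 148 scaled CPM in EtOH 20 h cultures and 567, 657 and 593 in controls (log2 fold change -1.71, SE 0.18, adjusted p = 0.000977). YHB1, the flavohaemoglobin that detoxifies nitric oxide, had 345, 227 and 98.9 in EtOH 20 h cultures and 903, 875 and 849 in controls (log2 fold change -1.96, adjusted p = 0.0128; 0.0611 without replicate 2).

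Some genes for growth on ethanol, acetate and other poor carbon sources rose. In the glyoxylate and gluconeogenesis list 8 of 17 genes rose and none fell, at a median of 1.17 and replicate medians of 0.89, 0.93 and 0.92. Without replicate 3 the count was again 8. It was 7 without EtOH 20 h replicate 2 or control replicate 2, and 6 without control replicate 3. SIP4, an activator of gluconeogenic genes, stood at 11.4, 19 and 53 scaled CPM in EtOH 20 h cultures and 0.968, 0.524 and 0.138 in controls (log2 fold change 5.63, SE 0.83, adjusted p = 0.00369; 4.72 without replicate 3). ADR1, the activator of ethanol and fatty acid use, stood at 152, 192 and 156 in EtOH 20 h cultures and 33.1, 39.8 and 26.3 in controls (log2 fold change 2.35, adjusted p = 0.000408). PCK1, which makes phosphoenolpyruvate for gluconeogenesis, had 22.3, 20.8 and 20.1 in EtOH 20 h cultures and 4.6, 5.76 and 4.98 in controls (log2 fold change 2.06, adjusted p = 0.000385). ACS1, acetyl-CoA synthetase, rose by 1.42, with 49.7, 54.9 and 33.5 in EtOH 20 h cultures and 18.1, 20 and 14 in controls. ICL1, isocitrate lyase of the same pathway, did not differ in this way, with 55, 54.2 and 82.9 in EtOH 20 h cultures and 60.8, 65.3 and 60.1 in controls (log2 fold change 0.07).

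In the ethanol and acetate list 5 of 18 genes rose and none fell. The count that rose was 3 without EtOH 20 h replicate 3 or control replicate 2 or 3, and 2 fell without EtOH 20 h replicate 1. PDC6, the minor pyruvate decarboxylase, stood at 42.5, 34.7 and 69.5 scaled CPM in EtOH 20 h cultures and 2.66, 1.57 and 3.04 in controls (log2 fold change 4.35, adjusted p = 0.000556). ADH2, the alcohol dehydrogenase that oxidises ethanol, had 53.2, 40.7 and 72.7 in EtOH 20 h cultures and 25.3, 19.2 and 26.8 in controls (log2 fold change 1.25, adjusted p = 0.00945, and 0.98 without replicate 3, under the fold rule). ALD4, the mitochondrial aldehyde dehydrogenase, had a log2 fold change of 1.03 (adjusted p = 0.0329), and its call was lost without EtOH 20 h replicates 1 and 2 or control replicates 2 and 3 (adjusted p = 0.0513, 0.109, 0.104 and 0.094, each left out alone). The fermentative enzymes PDC1 and ADH1, among the most abundant messenger RNAs, were lower in every EtOH 20 h library but not called. PDC1 stood at 14423, 12109 and 7818 in EtOH 20 h cultures and 23366, 23063 and 24767 in controls (log2 fold change -1.04, adjusted p = 0.0533, and 0.0307 without replicate 1). ADH1 stood at 9475, 9347 and 8202 in EtOH 20 h cultures and 13741, 13644 and 13813 in controls (log2 fold change -0.59, adjusted p = 0.14).

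Among 17 glycolytic genes 4 rose and 1 fell, and the members that moved were isozymes. TDH1, the least used of the glyceraldehyde phosphate dehydrogenases in growing cells, stood at 2457, 3473 and 3345 scaled CPM in EtOH 20 h cultures and 95.3, 63.7 and 63.6 in controls, a 42.3-fold rise (log2 fold change 5.40, SE 0.34, adjusted p = 0.000277). ENO1, an enolase, had 3881, 5677 and 6459.7 in EtOH 20 h cultures and 924, 806 and 803 in controls (log2 fold change 2.68, adjusted p = 0.00153). HXK1, a hexokinase repressed by glucose, rose by 2.30, and HXK2, the hexokinase of glucose growth, fell by 1.56, with 1104, 1051 and 837 in EtOH 20 h cultures and 2966, 2867 and 3082 in controls (adjusted p = 0.00402). Of the 50-base stretches of TDH1 and ENO1, 15.7% and 23.6% occur more than once in the genome. Among sugar transporter genes, HXT1, the low-affinity transporter that high glucose induces, fell, with 194, 129 and 129 in EtOH 20 h cultures and 692, 658 and 717 in controls (log2 fold change -2.18, SE 0.20, adjusted p = 0.000761). HXT4 and HXT7, of higher affinity, rose by 1.44 and 1.97, though 95.1% of the stretches of HXT7 are repeated and its adjusted p was 0.0506 without control replicate 2. For HXT4 the adjusted p was 0.0774, 0.0841 and 0.0558 without EtOH 20 h replicate 2, control replicate 2 and control replicate 3. Control replicate 3 was lowest of the controls for HXT4 (36.5, against 98.6 and 56.5 in the others) and HXT7 (2.49, against 9.43 and 7.07). MAL31, a maltose permease, fell, with 9.88, 13.8 and 20.9 in EtOH 20 h cultures and 97, 84.7 and 70.6 in controls (log2 fold change -2.47, adjusted p = 0.00131).

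Fatty acid breakdown and carnitine shuttling rose in part: 5 of 17 genes of the peroxisome list were called higher, at a median of 0.77. CRC1, the mitochondrial carnitine carrier, stood at 22, 21.6 and 25.3 scaled CPM in EtOH 20 h cultures and 0.847, 0.785 and 0.968 in controls (log2 fold change 4.73, SE 0.21, adjusted p = 7.38e-05). YAT1, a carnitine acetyltransferase, rose by 1.97 and POX1, the acyl-CoA oxidase, by 1.95. Few genes of respiration itself were called, where 8.59% of all genes were called higher and 3.49% lower. Of 27 respiratory chain genes 1 rose, COX5B, the hypoxic isoform of a cytochrome oxidase subunit (log2 fold change 1.15). The count that rose was 3 and 2 without EtOH 20 h replicates 1 and 2, and without replicate 3 none rose and 1 fell. Of 13 genes of the TCA cycle 1 fell, ACO1, aconitase (log2 fold change -1.20, adjusted p = 0.0197). The call of ACO1 was lost without EtOH 20 h replicate 2 (adjusted p = 0.0774), replicate 3 (log2 fold change -0.95) or control replicates 1, 2 and 3 (adjusted p = 0.0666, 0.0715 and 0.0676). The 2 of 16 ATP synthase genes that rose, INH1 and STF1, encode inhibitors of its reverse, ATP-splitting reaction, and their log2 fold changes were 1.72 and 1.69. CIT1, citrate synthase, had a log2 fold change of 0.64 (adjusted p = 0.0111).

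In ergosterol synthesis 5 of 29 genes fell and none rose, at a median of -0.44 (-0.23 with libraries scaled by totals alone). The count was 8 without EtOH 20 h replicate 1, and 3 without replicate 3 or control replicate 2 or 3. ERG2, the sterol isomerase, stood at 187, 159 and 88.2 scaled CPM in EtOH 20 h cultures and 351, 345 and 376 in controls (log2 fold change -1.29, SE 0.26, adjusted p = 0.0106). ERG6, which methylates the sterol side chain, fell by 1.25 and HMG1, HMG-CoA reductase, by 1.17, with tight replicates (114, 110.3 and 92.8 for HMG1 in EtOH 20 h cultures, 237, 235 and 249.9 in controls). ERG11, the target of azole drugs, stayed under the fold rule at -0.89 (adjusted p = 0.0146) and was called without replicate 1 (-1.03). ERG10, whose log2 fold change was -1.08, lost its call without replicate 3 (-0.88), replicate 2 (adjusted p = 0.0523) or control replicates 2 and 3 (0.0542 and 0.0527). Phospholipid genes controlled by inositol rose in 5 of 18, at a median of 0.54, and in 3 without EtOH 20 h replicate 2. INO1, which makes inositol, stood at 81, 240.4 and 145 in EtOH 20 h cultures and 14.2, 21.7 and 15.2 in controls (log2 fold change 3.21, adjusted p = 0.00218). OPI3, a phospholipid methyltransferase of phosphatidylcholine synthesis, had 393, 401 and 278 in EtOH 20 h cultures and 47.2, 47 and 47.3 in controls (log2 fold change 2.94, SE 0.17, adjusted p = 0.000179). OLE1, the fatty acid desaturase, divided the replicates, with 373, 113 and 85.1 in EtOH 20 h cultures and 281, 249 and 329 in controls. Its log2 fold change was -0.58 (adjusted p = 0.4), and -1.54 without replicate 1, when it was called (adjusted p = 0.00228). FAA1, a fatty acyl-CoA synthetase, rose by 1.47.

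Of the multidrug resistance genes, 2 of 17 fell and 1 rose, where 3.49% of all genes were called lower and 8.59% higher. PDR5, the main drug efflux pump of the plasma membrane, stood at 2075, 1877 and 1737 scaled CPM in EtOH 20 h cultures and 5908, 6146 and 6432 in controls (log2 fold change -1.68, SE 0.26, adjusted p = 0.00399). ICT1, an acyltransferase under the same regulators, fell by 1.17. TPO1, a polyamine exporter, rose, with 161, 191 and 297 in EtOH 20 h cultures and 40.2, 58.6 and 63.7 in controls (log2 fold change 2.02).

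Among genes for using poor nitrogen sources 10 of 25 rose and none fell, at a median of 0.80. In 20 of the 25 all EtOH 20 h libraries lay above all controls, against 28.4% of all genes. PUT1, proline oxidase, stood at 111, 138 and 76.5 scaled CPM in EtOH 20 h cultures and 12.9, 8.25 and 9.26 in controls (log2 fold change 3.43, SE 0.26, adjusted p = 0.000435). PUT4, the proline permease, rose by 2.61. DAL80, a repressor that nitrogen limitation induces, stood at 2.54, 3.04 and 3.33 in EtOH 20 h cultures, and 0.242 in control replicate 1 with 0 counts in the other controls. Amino acid synthesis was split: 7 of 31 genes rose and none fell, while the list median was -0.14 (0.08 with libraries scaled by totals alone). CPA1, a subunit of the carbamoyl phosphate synthase of arginine synthesis, had 817, 837 and 876 in EtOH 20 h cultures and 178, 102 and 115 in controls (a 6.49-fold rise, adjusted p = 0.000761). ARG1 and ARG3 of the same pathway rose by 1.78 and 1.86, and BAT2, the cytosolic branched-chain transaminase, by 1.53. In sulfate assimilation and methionine synthesis, 4 of 20 rose, and replicate 3 stood apart again (replicate medians -0.23, -0.04 and 1.07). Without replicate 3, 2 rose and 1 fell, and without control replicates 1, 2 and 3 the count that rose was 0, 1 and 0. STR3, a cystathionine beta-lyase, stood at 12.6, 16.9 and 71.4 in EtOH 20 h cultures and 8.35, 6.68 and 6.64 in controls; its log2 fold change was 2.25, and 1.02 without replicate 3.

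Vitamin B6 and thiamine genes rose in 9 of 20, at a median of 0.87. SNZ1, which makes pyridoxal phosphate in cells that have stopped growing, stood at 818, 622 and 325 scaled CPM in EtOH 20 h cultures and 33.9, 36.4 and 43.7 in controls (log2 fold change 3.97, SE 0.35, adjusted p = 0.000621). SNO1, its partner subunit, rose by 2.65. THI5 and THI12 also rose, but 85% and 70.6% of their 50-base stretches are repeated, so their reads may belong to other genes of the family. Without control replicate 1 the count of the list was 5, and without EtOH 20 h replicate 2 or control replicate 3 it was 6.

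Metal and phosphate genes were mixed, where 8.59% of all genes were called higher and 3.49% lower. ZRT1, the high-affinity zinc transporter, stood at 258, 205 and 192 scaled CPM in EtOH 20 h cultures and 50.7, 44.2 and 40.2 in controls (log2 fold change 2.29, SE 0.15). In the iron uptake list 3 of 22 rose and 2 fell, and without EtOH 20 h replicate 1 the count that fell was 4: ARN2, a siderophore transporter, stood at 323, 260 and 181 in EtOH 20 h cultures and 773, 783 and 1012 in controls (log2 fold change -1.73, adjusted p = 0.0036). FRE4, a ferric reductase, fell by 1.58, and ISU2, a scaffold for iron-sulfur clusters, rose by 1.72. FIT3, an iron-binding cell wall protein, stood at 3938, 3219 and 1671 in EtOH 20 h cultures and 1276, 1227 and 1605 in controls; its call (log2 fold change 1.12, adjusted p = 0.0462) was lost without any one library other than EtOH 20 h replicate 3 (adjusted p = 0.0852 to 0.161). Phosphate genes rose in 7 of 17, at a median of 0.58. PHO5, the secreted acid phosphatase, had 331, 256 and 153 in EtOH 20 h cultures and 83.5, 76.6 and 65.4 in controls (log2 fold change 1.73, adjusted p = 0.00417). PHM8, a nucleotidase, rose by 2.28, and GIT1, a glycerophosphoinositol permease, by 2.51.

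Recycling and redox genes rose in part, where 8.59% of all genes were called higher and the median of all genes was 0.06. Of 18 autophagy genes 4 rose, at a median of 0.73, and 2 rose without EtOH 20 h replicate 2 or control replicate 3. One of the 4, ATG7, which activates ATG8, lost its call without any one library other than EtOH 20 h replicate 1 (log2 fold change 1.03; 0.60 without replicate 3, and adjusted p = 0.102 to 0.134 without the others). ATG8, the ubiquitin-like protein that coats the autophagosome, stood at 34.3, 69.2 and 93.4 scaled CPM in EtOH 20 h cultures and 19.7, 18.7 and 17.7 in controls (log2 fold change 1.84, SE 0.35, adjusted p = 0.00896). APE1, a vacuolar aminopeptidase that autophagy delivers, had 283, 344 and 234 in EtOH 20 h cultures and 80.4, 101 and 82.2 in controls (log2 fold change 1.73). In the oxidative stress list 5 of 21 rose, at a median of 0.10. OYE3, an NADPH oxidoreductase, had 24, 40 and 23.3 in EtOH 20 h cultures and 3.99, 2.75 and 2.76 in controls (log2 fold change 3.20), GTT2, a glutathione transferase, rose by 1.73, and PRX1, the mitochondrial peroxiredoxin, by 1.71. In the unfolded protein list 2 of 16 rose, close to the share of all genes, and none without any one control. One of them, ERO1, which forms disulfide bonds in the endoplasmic reticulum, had 339, 536 and 1025 in EtOH 20 h cultures and 203, 179 and 192 in controls (log2 fold change 1.75, adjusted p = 0.0161; 0.0617, 0.0709 and 0.0693 without control replicates 1, 2 and 3). KAR2, the Hsp70 of that compartment, had 1609.8, 2653 and 4746 in EtOH 20 h cultures and 1395, 1316 and 1271 in controls and was not called (log2 fold change 1.21, adjusted p = 0.0584).

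Of the mating genes of a cells, 8 of 18 tested fell and none rose, where 3.49% of all genes were called lower. The list median was -1.04 (-0.82 with libraries scaled by totals alone, when 6 fell). The replicate medians were -0.94, -1.16 and -0.96, and leaving out any one library gave 8 to 10 falls. SST2, which switches off the pheromone signal, stood at 48.1, 43.7 and 51.9 scaled CPM in EtOH 20 h cultures and 183, 175 and 201 in controls (log2 fold change -1.94, SE 0.12, adjusted p = 0.000217). MFA1, a gene for a factor, had 20.9, 18.7 and 26.1 in EtOH 20 h cultures and 64.3, 74.6 and 80.5 in controls (log2 fold change -1.72, adjusted p = 0.000801). STE2, named above, and BAR1, the protease that degrades alpha factor, fell by 1.57 and 1.51. STE3, the receptor for a factor and normally a gene of alpha cells, was low in level but rose, with 8.04, 7.75 and 7.04 in EtOH 20 h cultures and 1.21, 1.44 and 1.24 in controls (log2 fold change 2.56, SE 0.23, adjusted p = 0.000603). Of 19 genes of meiosis and sporulation, which BY4741 as a haploid does not enter, 6 rose and 1 fell. REC8, the meiotic cohesin subunit, had 7.9, 11.5 and 11.1 in EtOH 20 h cultures and 0.605, 1.05 and 0.968 in controls (log2 fold change 3.55), and IME2, a kinase of early meiosis, fell (10.7, 9.13 and 11.4 in EtOH 20 h cultures, 29.9, 39.8 and 30.5 in controls; log2 fold change -1.66, adjusted p = 0.00102).

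FLO11 (YIR019C), a large cell wall glycoprotein needed for adhesion and mats, was among the largest rises and had an order of its own. It stood at 859, 640.0 and 96.3 scaled CPM in EtOH 20 h replicates 1, 2 and 3, and at 14.8, 14.8 and 14.2 in controls, a 36.6-fold rise (log2 fold change 5.19, SE 0.77, adjusted p = 0.00376). Here replicate 3 was the library nearest the controls, and without it the log2 fold change was 5.68. FLO11 holds repeats, and 28% of its 50-base stretches occur more than once in the genome. Of the genes of the cell wall integrity pathway, 2 of 20 rose, at a median of 0.05. Both values lay close to those of all genes (8.59% called higher, median 0.06). GSC2, the stress-induced glucan synthase subunit, stood at 563, 562 and 594 in EtOH 20 h cultures and 151, 130.2 and 121 in controls (log2 fold change 2.12, SE 0.15, adjusted p = 0.000357), and YPS6, a surface protease, rose by 1.31. TIP1, a mannoprotein induced by cold and anaerobic growth, had 927, 743 and 1187 in EtOH 20 h cultures and 264, 255 and 275 in controls (log2 fold change 1.87) and was the 1 of 8 such genes that rose.

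Set against SDS 20 h cultures, which share the time in culture, 450 of 5900 genes (7.63%) were higher and 245 (4.15%) lower in EtOH 20 h cultures. Heat shock chaperones were higher there too, in 17 of 28 genes at a median of 1.93. The SDS 20 h replicate medians of the list were -0.25, 0.05 and -0.43 over control. Its share of all counts was 1.68%, 1.99% and 1.57% in SDS 20 h replicates 1, 2 and 3, and 2.18% to 2.39% in controls. SSA4 stood at 615, 2174 and 9516 scaled CPM in EtOH 20 h cultures and at 50.3, 53.7 and 50.4 in SDS 20 h cultures, and FLO11 at 859, 640.0 and 96.3 in EtOH 20 h cultures and at 11.4, 15.7 and 13.9 in SDS 20 h cultures. HSP12 was above SDS 20 h by 3.82 on the log2 scale, since the SDS 20 h cultures stood at 18.3, 20.9 and 20.1, above the controls. Ribosomal protein genes were lower than in SDS 20 h in 13 of 21 genes, at a median of -1.13. Without EtOH 20 h replicate 1 the counts over all genes were 537 higher and 388 lower, and without replicate 2 they were 353 and 137. With 1 SDS 20 h library left out they were 277 to 352 and 124 to 149. The list counts against SDS 20 h were not recounted with libraries left out.

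For some lists the difference from SDS 20 h was not the difference from control; both comparisons use the same EtOH 20 h libraries. Against SDS 20 h, 1 of 18 mating genes was higher and none lower, at a median of 0.03: SST2 stood at 48.1, 43.7 and 51.9 scaled CPM in EtOH 20 h cultures and at 50.9, 49.8 and 43.4 in SDS 20 h cultures. GSC2 also lay close, with 563, 562 and 594 in EtOH 20 h cultures and 537, 553 and 550.4 in SDS 20 h cultures. Iron uptake genes were higher than in SDS 20 h in 12 of 22 genes, at a median of 1.17; FIT3 stood at 3938, 3219 and 1671 in EtOH 20 h cultures and at 242, 235 and 505 in SDS 20 h cultures (log2 fold change 3.20). Multidrug resistance genes were lower in 8 of 17, among them PDR5, with 2075, 1877 and 1737 in EtOH 20 h cultures and 9616, 9769.5 and 9578 in SDS 20 h cultures (log2 fold change -2.31), and RTA1, a membrane protein of the lipid-translocating exporter family (log2 fold change -2.77). Of the phosphate genes 5 of 17 were lower and 1 higher, PHO5 standing at 331, 256 and 153 in EtOH 20 h cultures and at 1153, 1354 and 1179 in SDS 20 h cultures. ACO1 stood at 439.5, 343 and 197 in EtOH 20 h cultures and at 1761, 2267 and 1919 in SDS 20 h cultures, the largest difference of 4 TCA cycle genes called lower. Histone genes were lower in 6 of 10, at a median of -1.13, and their SDS 20 h replicate medians were above control (0.73, 0.72 and 0.65), while in EtOH 20 h cultures they ran 0.07, -0.30 and -1.17.

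**Figure D4:**
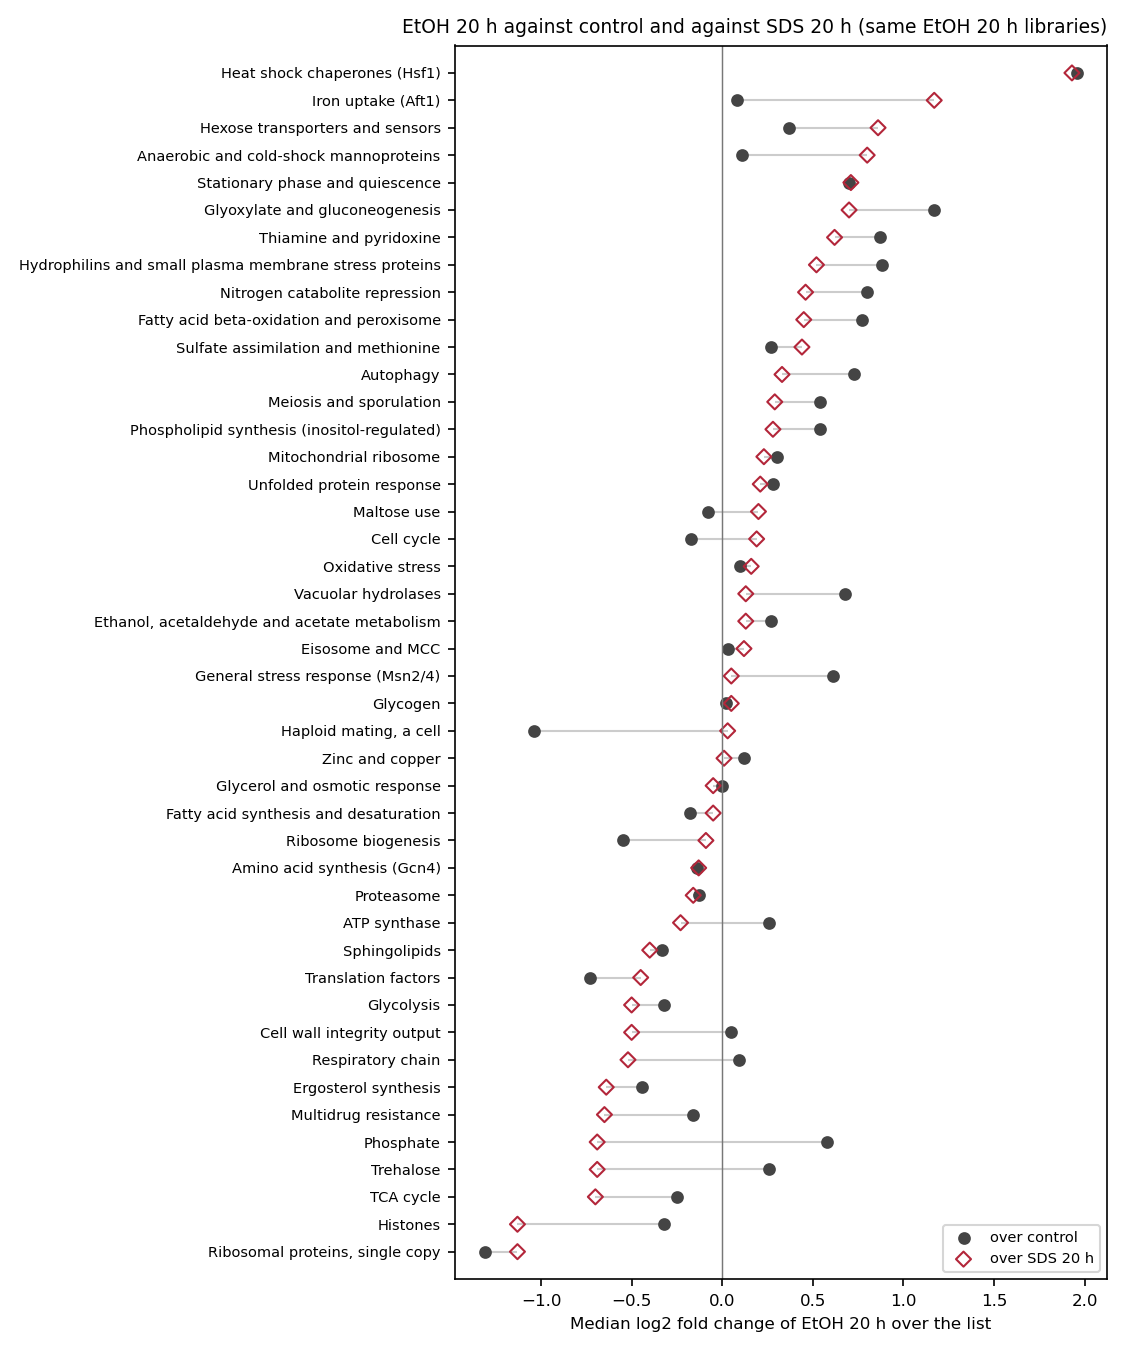
Each row is a gene list; the x axis is the median log2 fold change of EtOH 20 h over the list, against control (filled circles) and against SDS 20 h (open diamonds). The symbols nearly coincide for heat shock chaperones (1.96 and 1.93), lie apart for iron uptake (0.08 and 1.17) and phosphate (0.58 and -0.69), and for mating genes only the circle is far from 0 (-1.04 and 0.03). Both sets of values use the same EtOH 20 h libraries.

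Against EtOH 8 h cultures, 2 of 5978 genes (0.0335%) were higher and none lower in EtOH 20 h cultures by edgeR, although 1054 had an unadjusted p below 0.05. DESeq2 called 53 higher and 62 lower, limma voom 85 and 134, and the edgeR fit over all 39 libraries 116 and 81. With no filter on low counts edgeR called 19 and 9. Without EtOH 20 h replicate 3, edgeR called 42 higher and 23 lower; without EtOH 8 h replicate 2 or 3 it called none in either direction, and without EtOH 8 h replicate 1, it called 5 higher and 5 lower. The EtOH 8 h libraries differed in depth, with 6216014, 21167236 and 3105804 counts. PUT1 was one of the 2 genes, with 111, 138 and 76.5 scaled CPM in EtOH 20 h cultures and 15.7, 16.6 and 14 in EtOH 8 h cultures (log2 fold change 2.80, SE 0.22, adjusted p = 0.00815). IRT1, a noncoding RNA that runs across the promoter of the meiotic regulator IME1, was the other, with 24.7, 21.7 and 20.7 in EtOH 20 h cultures and 6.24, 7.18 and 7.99 in EtOH 8 h cultures (log2 fold change 1.67, SE 0.19, adjusted p = 0.0486); it was named after its values were seen. FLO11 and MFA1 had differences that just missed the threshold (log2 fold changes 5.57 and -2.12, adjusted p = 0.0501 for both). FLO11 stood at 859, 640.0 and 96.3 in EtOH 20 h cultures and at 8.68, 13 and 11.7 in EtOH 8 h cultures, and MFA1 at 20.9, 18.7 and 26.1 in EtOH 20 h cultures and at 65.1, 85.2 and 140 in EtOH 8 h cultures.

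Along the ethanol course the heat shock list was raised early and did not follow a single path. Its replicate medians over control were 0.94, 0.85 and 0.39 at 0.5 h, 1.29, 1.05 and 0.35 at 1 h, 1.45, 1.17 and 0.64 at 2 h, 0.94, 0.95 and 0.87 at 4 h, 0.91, 0.58 and 1.10 at 8 h and 0.19, 1.24 and 2.33 at 20 h. Through 8 h the replicates lay within about 1 log2 unit of each other, and at 20 h they spanned the values of the whole course and beyond. Ribosomal protein medians were -0.49, -0.26 and -0.03 at 4 h, -1.20, -0.98 and -0.52 at 8 h and -0.80, -1.33 and -2.30 at 20 h. The mating list medians were -0.94, -1.16 and -0.96 at 20 h, against -0.31, -0.20 and -0.15 at 8 h, and SDS 20 h cultures stood at -0.91, -0.99 and -1.07. TDH1 stood at 2457, 3473 and 3345 scaled CPM at 20 h and at 6226, 7704 and 6372 at 8 h. INO1 stood at 81, 240.4 and 145 at 20 h and at 273, 298 and 236 at 8 h, and neither gene was called between these times.

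**Figure D5:**
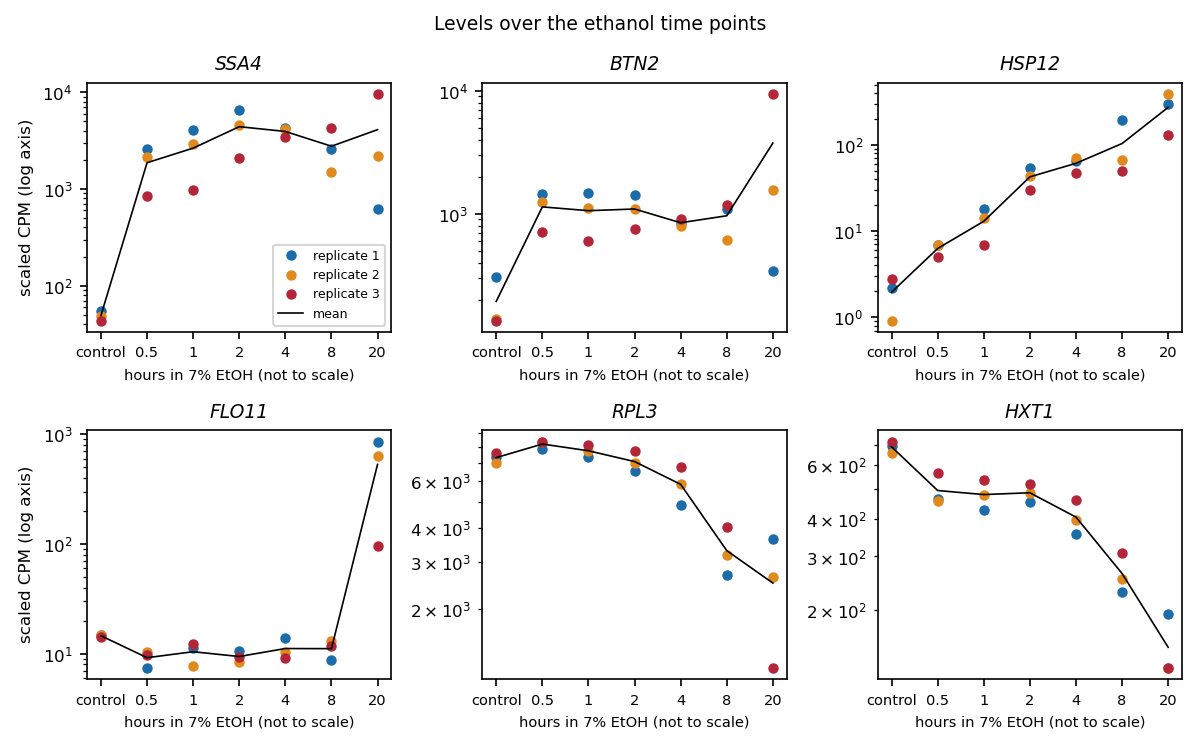
Each panel is a gene over the ethanol course, with scaled CPM on a log y axis. The x axis holds the control and then the 6 sampling times between 0.5 and 20 h, and it is not to scale. Points are replicates and the line is their mean. SSA4 and BTN2 are raised from 0.5 h and spread most at 20 h. FLO11 stays near the control level until 8 h and is high at 20 h. HXT1 lies below the controls at all 6 times, and RPL3 lies below them from 4 h on.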

How the data were processed

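Poly(A) RNA was sequenced in 39 BY4741 libraries, 3 per group. Control, ethanol and SDS samples were drawn from the same cultures, as described above. The authors deposited a table of whole-number read counts per gene, with 7127 features, of which 421 are noncoding. The submitters' processing notes name featureCounts 2.0.1, STAR 2.7.8, Trimmomatic 0.39, FastQC 0.11.9 and build R64. The labels and notes used here do not state the strand setting or how reads with several matches were counted, so overlapping, antisense and near-identical genes cannot be told apart by their counts. The share of each gene's 50-base stretches that occur more than once was counted in the R64 genome.

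edgeR 4.0.16 (R 4.3.3) fitted the 6 libraries of each comparison, with genes kept by filterByExpr, TMM scaling and the robust quasi-likelihood test (4 residual degrees of freedom); the other groups, which spread less, did not enter. Genes were called at a Benjamini-Hochberg adjusted p below 0.05 and an absolute log2 fold change of at least 1. The fold is one of group means, so the highest library weighs most. Levels are CPM (counts relative to the library's total) scaled by TMM over the 39 libraries and are compared within a gene only; log2 levels had a pseudocount of 1. A count of 3 corresponded to 0.363 to 0.423 scaled CPM.

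The members and the 47 gene lists (855 genes, 852 measured) were chosen with earlier results of these data known. Genes named were the 12 largest rises and falls with a mean of at least 20 CPM and groups that do not overlap, up to 4 called members per list and direction, 24 followed genes, and the 10 with the widest EtOH 20 h range; in each other comparison 6 rises and falls were taken. Further members were named for their role after their values were seen. Other settings tried were DESeq2 1.42.0, its size factors in edgeR, limma voom (3.58.1), no filter, a replicate block, all 39 libraries, each library left out and, chosen after seeing the data, library size alone.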

Additional observations from a re-analysis of the deposited data

Results flagged for a closer look

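PUT1 and IRT1 differed between EtOH 20 h and EtOH 8 h cultures by a test of the difference itself. The log2 difference was 2.80 for PUT1 and 1.67 for IRT1, with all 3 EtOH 20 h libraries above all 3 EtOH 8 h libraries in both genes. Only 1 of the 2 calls remained with the replicate block or without EtOH 8 h replicate 1. The same held without EtOH 20 h replicate 1 or 2, each left out alone. Neither call remained without EtOH 8 h replicate 2 or 3. Against SDS 20 h, IRT1 stood at 24.7, 21.7 and 20.7 scaled CPM in EtOH 20 h cultures and at 26.6, 22.8 and 23.4 in SDS 20 h cultures. PUT1 stood at 111, 138 and 76.5 in EtOH 20 h cultures and at 23.5, 10.2 and 9.81 in SDS 20 h cultures. Groups of 3 were not tested for single outlying libraries.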

How the results depend on the processing

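Against control, the counts of higher genes stayed within 1.5 times of 510 under each alternative tried, from 377 to 738. The count of lower genes, 207, was 103 with library size alone and 86 to 363 with 1 library left out; with the replicate block it was 139, beside 454 higher. Without EtOH 20 h replicate 3, 434 of the 510 higher and 117 of the 207 lower genes were shared with the full set. Against EtOH 8 h, where 2 were higher and 0 lower, there were 19 and 9 with no filter, 53 and 62 with DESeq2, 85 and 134 with limma voom, 116 and 81 with all 39 libraries, and 1 and 0 with the replicate block; with 1 library left out there were 0 to 42 and 0 to 23. Against SDS 20 h, library size alone gave 725 higher and 107 lower, against 450 and 245, and leaving out 1 library gave 277 to 537 and 124 to 388. CTT1, at -0.09 and not called, changed sign with library size alone (0.14) and without EtOH 20 h replicates 1 (0.02) and 2 (0.05), and with 1 library left out it ranged from -0.49 to 0.05. For the lower counts with 1 library left out, fewer samples enter the fit. Same-numbered EtOH 20 h and control libraries did not deviate together (r = -0.11, -0.07 and -0.22), and no EtOH 20 h library correlated best with the control of its own number. The sampling scheme draws both groups from the same cultures, so whether the numbers pair them is not settled here. Under the block 18 of the 129 named genes called against control lost their call, among them BTN2, ATG41, ROQ1, RPL3, RPS2, ASC1, NOP56, EFT2, ATG7, FIT3 and STR3. Depth limits genes near or below 1 scaled CPM in controls, such as DAL80, SPG4, SIP4, CRC1, REC8 and snR18, whose folds rest on a few control counts. CRC1 had 7, 6 and 7 counts in control replicates 1, 2 and 3. The control levels of HSP12, at 2.18, 0.916 and 2.76 scaled CPM, were also low, so the size of its fold is uncertain.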
